A study of Rattus norvegicus with 12 samples.

Results

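The cluster of miR-143 and miR-145, a pair of smooth muscle microRNA hairpins, is represented here by 4 mature rat microRNAs, rno-miR-143-3p, rno-miR-143-5p, rno-miR-145-5p and rno-miR-145-3p, chosen by name as both arms of the 2 hairpins. They are 4 of the 641 miRNAs listed, and all 4 were among the 303 that passed the filter for testing (at least 1 rpm, reads per 1000000 reads, in at least 6 of the 12 libraries). The libraries are small RNA sequencing of aorta from female spontaneously hypertensive rats (SHR), which are inbred and become hypertensive with no treatment. The group labelled EWH (6 libraries) is set against a control group given saline (6 libraries). EWH is not spelled out in the labels, which give neither dose, duration nor age; peptides derived from egg white appear in the title of the study. Strain, sex and tissue are the same in both groups. Nothing in the labels says that the libraries of a group are separate animals, so the p-values reflect spread among these libraries alone, and that spread may be technical. The prefix rno- is left out below.

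A microRNA hairpin is cut into a duplex of 2 arms, named 5p and 3p by their side of the hairpin, and usually 1 arm is kept by Argonaute and the other discarded. The kept arm finds its target mRNAs mainly through its seed, bases 2 to 8. MiR-143 and miR-145 are made from neighbouring hairpins and are characteristic of contractile smooth muscle, where serum response factor and myocardin drive them. MiR-145-5p is known to repress Klf4 and Klf5, transcription factors that oppose the contractile state. MiR-143-3p is known to repress Elk1, which competes with myocardin for serum response factor. Mice lacking the cluster have arteries with poorly contracting smooth muscle and lower blood pressure.

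In RefSeq's rat assembly GRCr8 both hairpins lie on the minus strand of chromosome 18, mir-143 upstream of mir-145 in the direction of transcription, and both overlap the long noncoding RNA gene Carmn, also named Mir143hg. Neither hairpin overlaps another miRNA hairpin, and each is the other's nearest miRNA gene. The submitters' processing notes give the build rn6, so no coordinates are printed. The hairpins are shown with both mature arms in capitals, since every comparison below rests on which arm the reads came from.
mir-143 hairpin: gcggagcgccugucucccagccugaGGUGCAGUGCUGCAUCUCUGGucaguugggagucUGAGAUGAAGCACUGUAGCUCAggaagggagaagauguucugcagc
mir-145 hairpin: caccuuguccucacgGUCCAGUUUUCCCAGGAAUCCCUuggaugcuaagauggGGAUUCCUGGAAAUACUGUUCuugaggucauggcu

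The 4 mature sequences, from the same RefSeq table, follow with the seed (bases 2 to 8) in capitals, to show that the members do not share a seed.
miR-143-3p: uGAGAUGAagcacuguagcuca
miR-143-5p: gGUGCAGUgcugcaucucugg
miR-145-5p: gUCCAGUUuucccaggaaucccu
miR-145-3p: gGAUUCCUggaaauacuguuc

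The 4 seeds differ from each other, and none recurs among the 581 listed miRNAs that have a sequence in the table. The mature lengths are close, at 22 bases for miR-143-3p, 21 for miR-143-5p, 23 for miR-145-5p and 21 for miR-145-3p, so levels in rpm can be set side by side without a length term. MiR-143-3p is the only member that begins with U, and the other 3 begin with G. Argonaute is known to favour a U at that place. Over the 60 hairpins with both arms tested and sequenced in the table, the more abundant arm began with U in 30 and the less abundant arm in 16. In the structure predicted by RNAfold, 16 bases of miR-143-5p pair with miR-143-3p and 17 bases of miR-145-5p pair with miR-145-3p. In sequence, 13 bases lie between the mature arms of mir-143 and 15 between those of mir-145.

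The totals behind the rpm values were 23887799 to 24772944 reads, of which 76.4% to 80.6% fell in listed miRNAs, and 1 read was worth 0.0404 to 0.0419 rpm. No pair of libraries of 1 group agreed within sampling noise (30 pairs, chi-square per degree of freedom 119 to 3184). EWH 3 and EWH 4 stood apart from the other 10 on the first principal component of all tested miRNAs, at 11.97 and 16.2 where the others ranged from −7.94 to 4.94. Control 1 held the most of the endothelial pair miR-126a-3p and miR-126a-5p, at 12305 rpm against 3290 to 6913 rpm elsewhere. Differences between the groups are also given without EWH 3 and 4, and without single libraries where these moved them most.

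The 4 members came in 1 order in all 12 libraries, miR-143-3p first, then miR-145-5p, miR-145-3p and miR-143-5p. MiR-143-3p ranked first of all listed miRNAs in each library. MiR-145-5p ranked 33 to 37 in EWH and 32 to 42 in control, and miR-145-3p ranked 38 to 56 in EWH and 40 to 58 in control. MiR-143-5p ranked 60 to 77 in EWH and 52 to 81 in control. The level in rpm counts reads and not molecules, because how evenly the adaptor and amplification steps take up different sequences is not given in the sources used here.

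MiR-143-3p, the arm of mir-143 that targets Elk1, was measured at 330147 rpm (lowest), 374995 rpm (median) and 426996 rpm (highest) in EWH, against 345360, 403941 and 424317 rpm in control. The EWH range enclosed the control range, with EWH 4 and control 1 lowest in their groups. The means were 383398 ± 36932 rpm in EWH and 395202 ± 31339 rpm in control (SD, n = 6 each).

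MiR-145-5p, the arm that targets Klf4 and Klf5, had 781 rpm (lowest), 1000.4 rpm (median) and 1228 rpm (highest) in EWH, against 755, 1089 and 1551 rpm in control. The groups overlapped, and both the highest library (control 2) and the lowest (control 6) were controls. The means were 1006 ± 211 rpm in EWH and 1138 ± 282 rpm in control (SD, n = 6 each). EWH 3, 4 and 5 lay at 1226, 1122 and 1228 rpm, and EWH 1, 2 and 6 at 878, 781 and 798 rpm.

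MiR-145-3p, the partner strand of miR-145-5p in the duplex, was present at 467 rpm (lowest), 574 rpm (median) and 668 rpm (highest) in EWH, against 459, 533 and 674 rpm in control. The ranges nearly coincided, and EWH 4 and control 1 were again lowest in their groups. The means were 562 ± 75.3 rpm in EWH and 542 ± 81.2 rpm in control (SD, n = 6 each).

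MiR-143-5p, the strand usually discarded from mir-143, had 184 rpm (lowest), 231 rpm (median) and 349.6 rpm (highest) in EWH, against 159.6, 280.5 and 432 rpm in control. Controls 2 and 4 stood highest of all 12 libraries, at 432 and 421 rpm, and control 1 lowest, so the groups overlapped over the whole EWH range. The means were 243 ± 56.4 rpm in EWH and 302 ± 106 rpm in control (SD, n = 6 each).

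**Figure D1:**
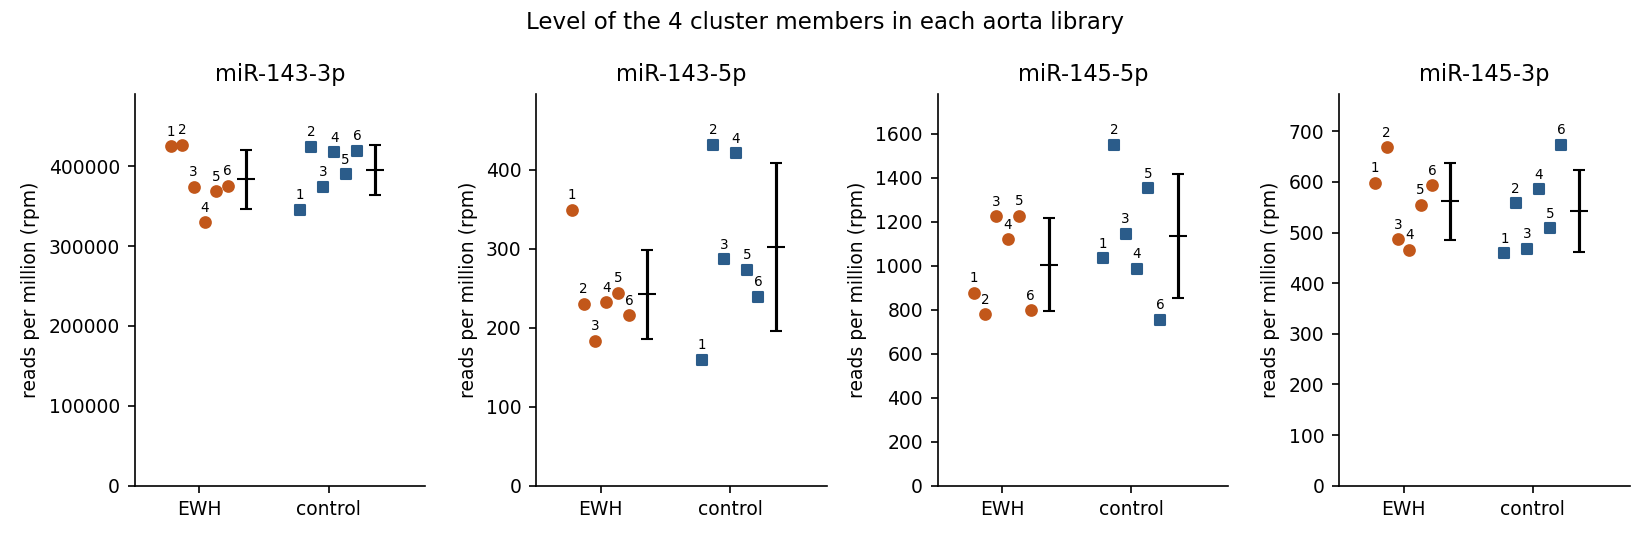
Level of each of the 4 members in reads per 1000000 (rpm, linear axes from 0) in 6 EWH libraries (circles) and 6 control libraries (squares), numbered by replicate, with the group mean and SD as a bar at the right of each group. The groups overlap for all 4 members, and miR-143-3p lies between 330147 and 426996 rpm in all libraries.

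The lowest count of any member was 3930 reads, for miR-143-5p in control 1, which gives 159.6 rpm with an exact 95% Poisson interval of 155 to 165 rpm for counting error only. The relative counting error there was 1.60%, against a spread between libraries of 23.2% in EWH and 35.1% in control. For miR-143-3p the coefficient of variation was 9.63% in EWH and 7.93% in control. Over all 12 libraries the SD of log2(rpm + 1) was 0.13 for miR-143-3p, and 5 of the 303 tested miRNAs varied less. It was 0.20 for miR-145-3p (49 of 303 varied less), 0.33 for miR-145-5p (146) and 0.44 for miR-143-5p (192), against a median of 0.34 over all tested. MiR-143-3p is itself the largest piece of the total that its rpm is divided by. Its spread in rpm is therefore not on equal terms with that of the other miRNAs.

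The first comparison asked whether the level of a member differed between EWH and control. None of the 4 did by limma on log2(rpm + 1), fitted to all 303 tested miRNAs with Benjamini-Hochberg adjustment over all of them, and fold changes below are on that scale. That fit called 0 of the 303 at an adjusted p under 0.05 (0%). At an unadjusted p under 0.05 it gave 70 (23.1%), of which 0 were members. Of the 70, 46 were higher and 24 lower in EWH, against 43 and 48 after rescaling to listed reads other than miR-143-3p and 43 and 37 after quantile normalization. The quasi-likelihood test of edgeR, run on reads recovered as whole numbers, called 40 of 303 (13.2%), again with 0 members at an adjusted or an unadjusted p under 0.05, and DESeq2 called 0 members. That edgeR count was 0 without EWH 3, EWH 4, or control 1, 4, 5 or 6. The 2 groups did not overlap for 5 of the 303 (1.65%), and for 0 of the 4 members.

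The log2 fold change of miR-143-3p was −0.05 (SE 0.07, limma adjusted p = 0.736), with a 95% interval equal to 0.867- to 1.08-fold. For miR-145-5p it was −0.17 (SE 0.18, limma adjusted p = 0.620), an interval of 0.676- to 1.17-fold. For the 2 less abundant arms it was, in miR-143-5p, −0.26 (SE 0.24, limma adjusted p = 0.549) with 0.584- to 1.19-fold, and in miR-145-3p 0.05 (SE 0.12, limma adjusted p = 0.808) with 0.865- to 1.24-fold. A 2-fold difference lies outside all 4 intervals, while smaller differences inside them were not detectable with these libraries.

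Among these 4 estimates, that of miR-143-3p was positive with edgeR (0.02) and DESeq2 (0.02), that of miR-145-5p after quantile normalization (0.02), and that of miR-145-3p was negative (−0.03) when values were rescaled to listed reads other than miR-143-3p. The SE of the miR-143-3p estimate was 0.12 after that rescaling and 0.13 under median-of-ratios scaling, against 0.07 in rpm. Without EWH 3 and 4 the EWH mean was 398986 ± 31249 rpm for miR-143-3p and 921 ± 209 rpm for miR-145-5p (SD, n = 4), and the log2 fold changes were 0.01 and −0.29 (limma adjusted p = 0.933 and 0.485). For miR-143-5p and miR-145-3p the log2 fold changes were then −0.16 and 0.16 (limma adjusted p = 0.759 and 0.500). With single libraries left out, the log2 fold change of miR-143-5p ran from −0.43 without control 1 (limma adjusted p = 0.220) to −0.15 without control 2 or control 4. That of miR-145-5p ran from −0.28 without control 6 to −0.07 without control 2, that of miR-143-3p from −0.08 without control 1 to −0.0034 without EWH 4, and that of miR-145-3p from 9.7e-05 without EWH 2 to 0.12 without control 6. The mean of miR-143-5p over the controls other than control 1, taken after the values were seen, was 331 ± 89.3 rpm (SD, n = 5).

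As a share of all listed reads, the 4 members together held 42.6% (lowest), 47.6% (median) and 53.8% (highest) in EWH, against 45.4%, 51.1% and 54.5% in control. The means were 48.5% ± 4.21 in EWH and 50.8% ± 3.45 in control (SD, n = 6 each), a difference of −2.23 percentage points (exact permutation p = 0.325, two-sided; the Benjamini-Hochberg value over 3 such measures was 0.487). The ranges overlapped almost wholly, and miR-143-3p made up nearly all of the share. With single libraries left out the difference ran from −3.30 points without control 1 to −1.03 points without EWH 4, and it was −0.27 points without EWH 3 and 4.

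With miR-143-3p taken out of both numerator and total, the other 3 members held 0.443% ± 0.0408 of the remaining listed reads in EWH and 0.516% ± 0.108 in control (SD, n = 6 each). That difference, −0.07 percentage points, did not pass either (exact permutation p = 0.139, adjusted p = 0.416), and ran from −0.10 without control 1 to −0.04 without control 2. It was −0.06 without EWH 3 and 4. Control 2 was highest at 0.707% and EWH 6 lowest at 0.388%, and the other 5 controls lay between 0.395% and 0.541%. In bulk tissue, fewer smooth muscle cells and less of these miRNAs per cell cannot be told apart.

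**Figure D2:**
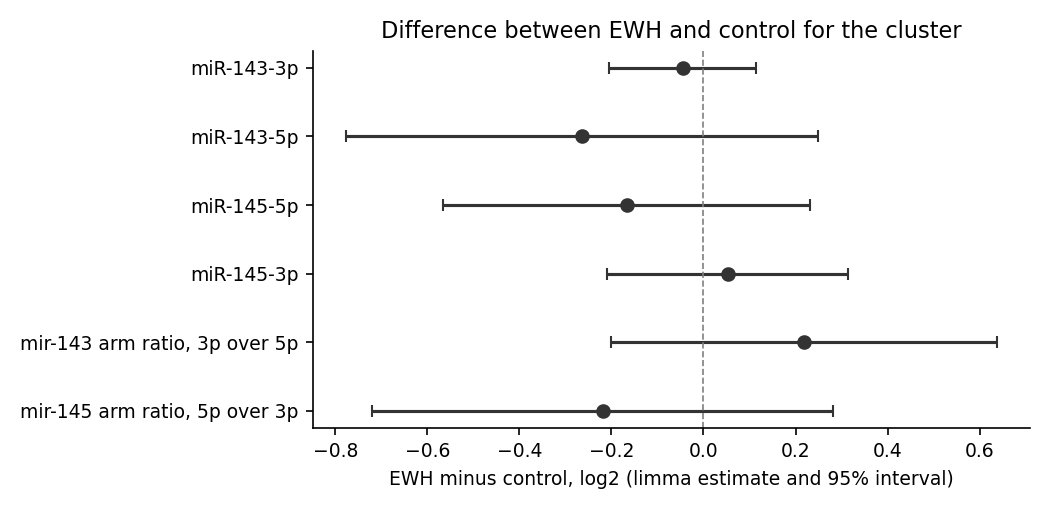
Estimated log2 difference, EWH minus control, for the 4 members (on the log2(rpm + 1) scale) and for the arm ratio of each hairpin, from limma with 95% intervals as bars; the dashed line marks no difference. All 6 intervals include 0, and the narrowest is that of miR-143-3p.

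The second comparison asked how reads divided between the arms of each hairpin, and whether that division differed with EWH. Reads of mir-143 came almost wholly from the 3p arm, which exceeded the 5p arm 1215-fold (lowest), 1624-fold (median) and 2038-fold (highest) in EWH, against 982-fold, 1364-fold and 2163-fold in control. The groups overlapped, with control 1 highest and controls 2 and 4 lowest. By the size of its mean log2 ratio, 10.53 over 12 libraries, mir-143 ranked second of 67 hairpins with both arms tested, after let-7i, where the median size was 2.24.

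Reads of mir-145 came from both arms. The 5p arm exceeded the 3p arm 1.17-fold (lowest), 1.84-fold (median) and 2.52-fold (highest) in EWH, against 1.12-fold, 2.35-fold and 2.78-fold in control. In 3 EWH libraries (EWH 3, 4 and 5) and 4 controls (controls 1, 2, 3 and 5) the ratio was over 2, while EWH 1, 2 and 6 and controls 4 and 6 lay at 1.47, 1.17, 1.34, 1.68 and 1.12, so both groups held high and low libraries. The size of its mean log2 ratio, 0.93, placed mir-145 at rank 47 of the 67. MiR-145-5p made up 63.6% ± 7.63 of the reads of both arms in EWH and 67.0% ± 7.93 in control (SD, n = 6 each).

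The 3p over 5p ratio of mir-143 differed by 0.22 log2 (SE 0.20, limma adjusted p = 0.615 over 67 hairpins), an interval of 0.870- to 1.56-fold. The 5p over 3p ratio of mir-145 differed by −0.22 log2 (SE 0.24, limma adjusted p = 0.703), an interval of 0.607- to 1.22-fold. Limma called 0 of the 67 arm ratios at an adjusted p under 0.05 (0%) and gave 13 at an unadjusted p under 0.05 (19.4%), of which 0 were from the cluster. Without EWH 3 and 4 the mir-143 difference was 0.18 log2 and the mir-145 difference −0.46 log2 (limma adjusted p = 0.805 and 0.487). With single libraries left out, the mir-143 difference ran from 0.12 without control 2 to 0.35 without control 1, and the mir-145 difference from −0.39 without control 6 to −0.10 without EWH 2.

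Between the hairpins, the abundant arm miR-143-3p exceeded miR-145-5p 294-fold (lowest), 388-fold (median) and 547-fold (highest) in EWH, against 274-fold, 330.4-fold and 555-fold in control. EWH 1, 2 and 6 and controls 4 and 6, the libraries low in the mir-145 arm ratio, were also the 5 with the highest values here. Both ratios contain miR-145-5p, so these are not separate observations. The mean log2 ratio was 8.59 ± 0.41 in EWH and 8.47 ± 0.38 in control (SD, n = 6 each), a difference of 0.12 (exact permutation p = 0.595, adjusted p = 0.595). It ran from 0.02 without EWH 2 to 0.25 without control 6, and was 0.31 without EWH 3 and 4. The 2 less abundant arms stood much closer, miR-145-3p exceeding miR-143-5p by 2.38 ± 0.46 fold in EWH and 1.98 ± 0.70 fold in control (SD, n = 6 each).

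**Figure D3:**
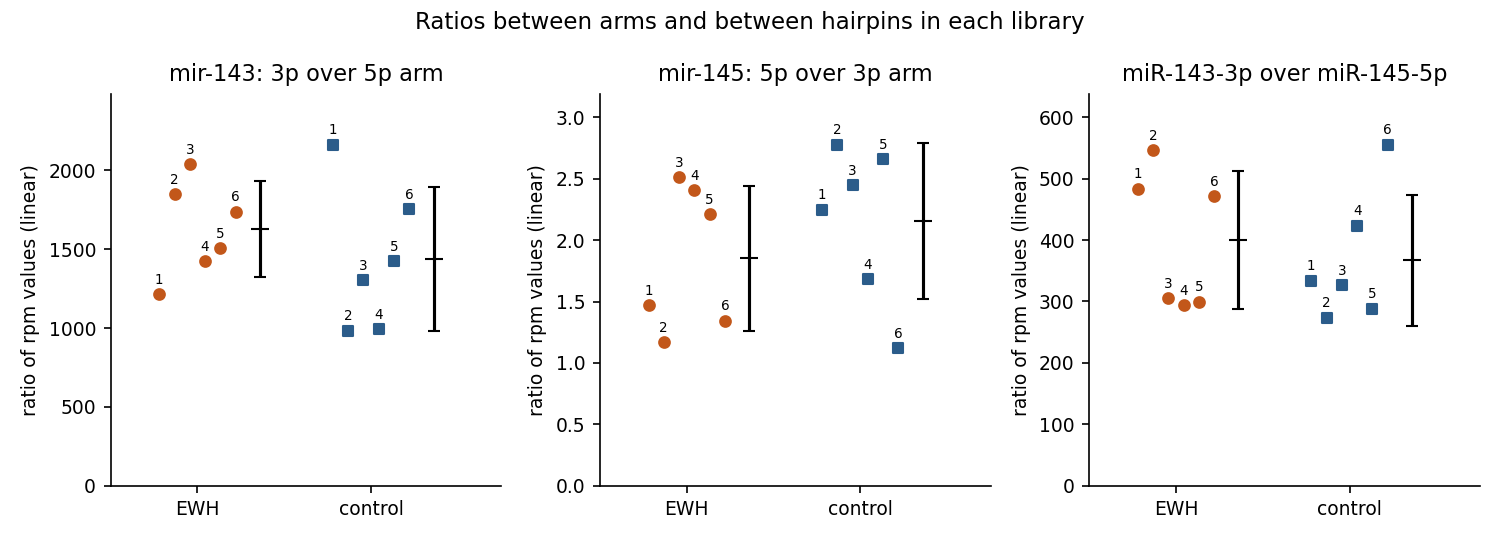
Ratio of rpm values (linear axes from 0) of the 3p over the 5p arm of mir-143, of the 5p over the 3p arm of mir-145, and of miR-143-3p over miR-145-5p, in 6 EWH (circles) and 6 control libraries (squares), numbered by replicate, with group mean and SD. EWH 1, 2 and 6 and controls 4 and 6 are low in the middle panel and high in the right panel.

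The third comparison asked whether the 4 members rose and fell together over the 12 libraries. Of the 6 pairs, only miR-143-3p with miR-145-3p passed after adjustment over the pairs, at Pearson r = 0.79 (permutation p = 0.00249, adjusted p = 0.0149) and Spearman rho = 0.84 (permutation p = 0.000980, adjusted p = 0.00588; n = 12, log2(rpm + 1)). These are the 3p arms of the 2 hairpins. Within EWH r was 0.85 (exact permutation p = 0.0292, n = 6) and within control 0.85 (exact permutation p = 0.0306, n = 6). Without the 2 libraries farthest from the median of miR-143-3p, r was 0.72 (permutation p = 0.0212, n = 10).

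Because all rpm values of a library share 1 total, of which miR-143-3p is the largest piece, the pairs were also compared after rescaling to the listed reads other than miR-143-3p. There r was 0.90 for the 3p arms (permutation p = 0.000150, adjusted p = 0.000900) and 0.91 under median-of-ratios scaling (permutation p = 5e-05, adjusted p = 0.000300). After the rescaling r was higher than in rpm for all 6 pairs, and the members still shared a divisor, so these values do not settle what a shared total contributes, which was not tested. By Pearson's r the pair of 3p arms did not pass without EWH 4 (r = 0.76, permutation p adjusted to 0.0519). Nor did it without EWH 3 and 4 (r = 0.75, permutation p adjusted to 0.0866). Spearman's rho gave adjusted permutation p = 0.0307 without EWH 4 and 0.0438 without EWH 3 and 4. EWH 4 and control 1 were lowest in miR-143-3p, and they were also highest in their groups for the endothelial pair miR-126a-3p and miR-126a-5p, at 6913 rpm (EWH range 4264 to 6913) and 12305 rpm (control range 3290 to 12305). Both endothelial miRNAs were tested and neither was at 0. The same 2 libraries were highest in their groups for the leukocyte marker sum (181 rpm in EWH 4, 228 rpm in control 1) and for the list linked to proliferating or injured muscle described below (135282 rpm in EWH 4, 132990 rpm in control 1). That muscle list sum was mostly miR-26a-5p, which averaged 107494 rpm in EWH and 102896 rpm in control. No other list summed was highest in both libraries. The fibroblast and mesenchymal sum was highest of EWH in EWH 4 (3689 rpm) and lowest of the controls in control 1 (2746 rpm). The part of these 2 libraries in the relation was not tested.

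The 2 arms of mir-143 gave r = 0.63 (permutation p = 0.0296, adjusted p = 0.0592) and rho = 0.43 (permutation p = 0.169, adjusted p = 0.338; n = 12), which did not pass. Of 13 settings with libraries left out, r passed in 1, without EWH 2 (r = 0.72, permutation p adjusted to 0.0364). There Spearman's rho did not pass (permutation p adjusted to 0.110). In the other settings the adjusted permutation p of r reached 0.182. After rescaling without miR-143-3p the same pair gave r = 0.77 (permutation p = 0.00371, adjusted p = 0.0111). It gave r = 0.46 within EWH (exact permutation p = 0.368, n = 6) and 0.79 within control (exact permutation p = 0.0736, n = 6).

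The 2 arms of mir-145 ran in opposite directions, at r = −0.63 (permutation p = 0.0294, adjusted p = 0.0592) and rho = −0.61 (permutation p = 0.0410, adjusted p = 0.123; n = 12), which did not pass. The correlation was −0.81 within EWH (exact permutation p = 0.0639, n = 6), −0.48 within control (exact permutation p = 0.340, n = 6) and −0.26 after rescaling without miR-143-3p (permutation p = 0.417). Control 2 lay off the trend of the others, and without it r was −0.78 (permutation p adjusted to 0.0222). Of 13 settings with libraries left out, only that 1 passed, and the adjusted permutation p reached 0.184 in the others. Under median-of-ratios scaling r was −0.34 (permutation p = 0.285).

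The more abundant arms of the 2 hairpins, miR-143-3p and miR-145-5p, showed no relation that passed. Their r was −0.25 (permutation p = 0.427, adjusted p = 0.445, n = 12) and rho −0.34 (permutation p = 0.278, adjusted p = 0.399). After rescaling without miR-143-3p, r was 0.07. The remaining pairs were miR-143-5p with miR-145-5p at r = 0.24 (permutation p = 0.445) and with miR-145-3p at r = 0.30 (permutation p = 0.340), both with adjusted p = 0.445 (n = 12).

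**Figure D4:**
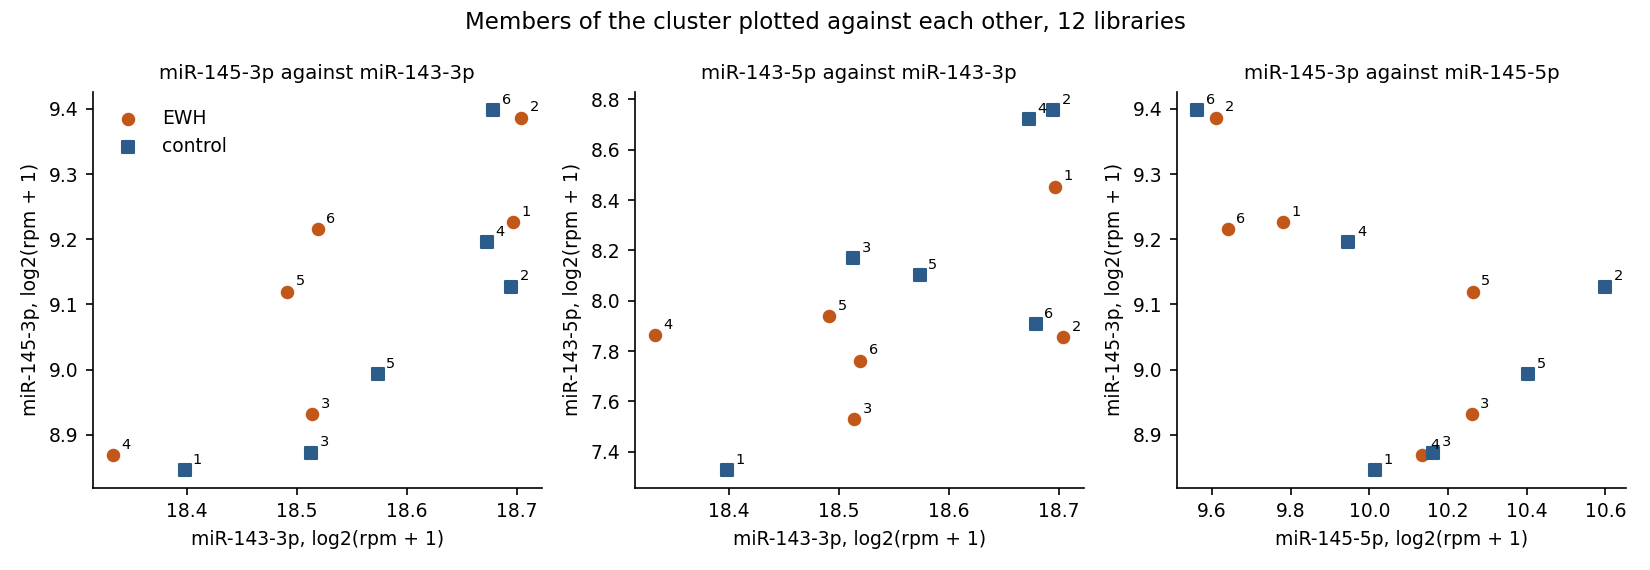
Each point is 1 library (circles EWH, squares control, numbered by replicate), on log2(rpm + 1) axes that do not start at 0: miR-145-3p against miR-143-3p (r = 0.79), miR-143-5p against miR-143-3p (r = 0.63) and miR-145-3p against miR-145-5p (r = −0.63). The left panel runs upward in both groups, and in the right panel control 2 lies at the far right, above the downward run of the others.

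Likeness to other miRNAs was described by Pearson r of log2(rpm + 1) over the 12 libraries, against 179 other tested miRNAs averaging at least 10 rpm, with no test; all values share library totals. MiR-143-3p was most like miR-101a-3p (r = 0.75), miR-27b-3p (0.65) and miR-152-3p (0.65), and least like miR-195-5p (r = −0.94), where the median over the 179 was −0.38. MiR-143-5p was most like miR-152-3p (r = 0.95), then miR-101a-3p (0.74) and miR-451-5p (0.73, an erythrocyte miRNA), and least like miR-139-5p (−0.89). MiR-152-3p averaged 611 ± 58.9 rpm in EWH and 728 ± 155 rpm in control (SD, n = 6 each).

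The arms of mir-145 had different neighbours. MiR-145-5p was most like miR-30b-5p (r = 0.79), miR-30c-5p (0.78) and miR-28-3p (0.75), and least like miR-504 (−0.76), with a median of 0.10 over the 179. MiR-145-3p was most like miR-27b-5p (r = 0.79), miR-27b-3p (0.71) and miR-101a-3p (0.62), and least like miR-103-3p (−0.83), with a median of −0.32. The 3 most like miRNAs of miR-145-5p and of miR-145-3p had no name in common, while miR-101a-3p was among the 3 most like of miR-143-3p, miR-143-5p and miR-145-3p.

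Other miRNAs linked to smooth muscle state were counted from 2 lists without the members, beside a median log2 fold change of −0.06 over all 303 tested miRNAs. In the list linked to contractile muscle 9 of 11 were tested and limma called 0 over all tested miRNAs, with 1 at an unadjusted p under 0.05, higher, beside 23.1% of all tested miRNAs, and 0 called by edgeR; 2 of the 9 estimates were positive and 7 negative, with a median of −0.15. Its most abundant members were miR-10a-5p at 22815 ± 3435 rpm in EWH and 20062 ± 4515 rpm in control, miR-27b-3p at 10947 ± 1039.8 and 11834 ± 1999.6 rpm, and miR-23b-3p at 653 ± 130.4 and 784 ± 221 rpm (EWH then control, SD, n = 6 each). The 1 at an unadjusted p under 0.05 was miR-1-3p, abundant in striated muscle and named after its values were seen, at 807 ± 273 rpm in EWH and 394 ± 238 rpm in control (SD, n = 6 each, limma adjusted p = 0.128).

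In the list linked to proliferating or injured muscle 13 of 15 were tested and limma called 0, with 3 at an unadjusted p under 0.05 (miR-21-5p, miR-29a-3p and miR-31a-5p, each lower), the same share, 23.1%, as over all tested miRNAs, and 0 called by edgeR; 4 of the 13 estimates were positive and 9 negative, with a median of −0.13. Its most abundant members were miR-26a-5p at 107494 ± 8599 rpm in EWH and 102896 ± 8689.6 rpm in control, miR-21-5p at 5804 ± 836 and 7380.3 ± 1503 rpm, and miR-24-3p at 5714 ± 535 and 6270.3 ± 603 rpm (EWH then control, SD, n = 6 each). MiR-21-5p, known to be raised in injured vessels, had limma adjusted p = 0.171.

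Markers of other cells that an aorta sample can hold were summed per library, with no test, to set beside the cluster. The smooth muscle markers are the members themselves, and miR-143-3p exceeded each of the other marker sums in all 12 libraries. The endothelial sum was 4264 to 6913 rpm in EWH and 3290 to 12305 rpm in control, and the fibroblast and mesenchymal sum (3 of 3 measured) was 2458 to 3689 rpm in EWH and 2746 to 4637 rpm in control. Striated muscle markers (6 of 7 measured) summed to 713 to 1438 rpm in EWH and 428 to 1367 rpm in control, and the heart marker miR-208a-3p averaged 0.00692 rpm in EWH and 0 in control. The most abundant striated marker was miR-1-3p, which is also in the contractile list. It averaged 807 ± 273 rpm in EWH and 394 ± 238 rpm in control (SD, n = 6 each). MiR-499-5p of the striated list stood at 157 ± 29.1 rpm in EWH and 262 ± 133 rpm in control (SD, n = 6 each). MiR-206-3p stood at 38.0 ± 6.53 rpm in EWH and 30.3 ± 7.09 rpm in control (SD, n = 6 each). Of the 5 striated markers tested, 2 had positive and 3 negative estimates. Neuron and glia markers (7 of 7) summed to 640.1 to 1552 rpm in EWH and 564 to 1345 rpm in control, and the oligodendrocyte marker miR-219a-5p averaged 0.0205 rpm in EWH and 0.00696 rpm in control. Of the 4 tested, edgeR called 2, both higher, where it called 13.2% of all tested miRNAs: miR-9a-5p, at 249.8 ± 175 rpm in EWH and 64.2 ± 21.8 rpm in control, and miR-338-3p, at 90.7 ± 65.9 and 27.5 ± 12.7 rpm (EWH then control, SD, n = 6 each, edgeR adjusted p = 0.0308 for both). The most abundant of the 4, miR-128-3p, stood at 683 ± 126 rpm in EWH and 770.1 ± 264 rpm in control and was not called. Of the 6 epithelial markers tested edgeR called 2, both lower, beside the same 13.2%: miR-200a-3p (5.31 ± 2.19 rpm in EWH, 29.5 ± 35.7 rpm in control) and miR-200b-3p (6.87 ± 2.83 rpm in EWH, 125 ± 196 rpm in control), at edgeR adjusted p = 0.0460 and 0.0331. Among the other 4, miR-205 had a positive estimate, at 14.9 ± 7.65 rpm in EWH and 10.1 ± 3.25 rpm in control (SD, n = 6 each), and was not called. Limma called none of the 4 markers that edgeR called, and their part in the cluster's values was not tested. EdgeR itself called no miRNA without EWH 3, EWH 4, or control 1, 4, 5 or 6. Sums were 119 to 384 rpm in EWH and 80.4 to 364 rpm in control for erythrocytes, 101 to 181 and 84.4 to 228 rpm for leukocytes, 75.1 to 195 and 59.8 to 711 rpm for epithelium, and 105 to 389 and 95.3 to 1355 rpm for fat (EWH then control), the last highest in control 1. All 8 sums overlapped between the groups.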

How the data were processed

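The deposited table held 641 mature miRNAs by 12 libraries. Its values are RPM as the authors deposited them, reads per 1000000 of a library total, although the table is named for TPM; no length term was found. Dividing by the value of 1 read gave whole reads for 100% of values (tolerance 0.01 read). Per the labels' protocols, Trizol RNA received adaptors at both ends and inserts of 15 to 35 nt were taken; per the submitters' processing notes the build was rn6. The sources used here do not give the aligner, counting tool, annotation, make-up of the total or treatment of reads that map to several places. Intervals cover counting error only, since reads are not known to be separate molecules.

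Columns were mapped through sample descriptions, and groups through titles. The miRNAs reaching 1 rpm in 6 or more libraries were fitted as log2(rpm + 1), EWH against control, with limma 3.58.1 (trend, two-sided, R 4.3.3) and Benjamini-Hochberg adjustment over all 303. Arm ratios, log2((arm + 1)/(other arm + 1)), were fitted likewise over 67 hairpins, with the trend on mean level. Single values were tested by exact permutation over every division into groups of 6, correlations by 100000 permutations (12 libraries) or all permutations (6 libraries), two-sided. EdgeR 4.0.16 and DESeq2 1.42.0 on recovered reads, scalings, filters, pseudocounts, a replicate block and left-out libraries were alternatives. The limma, edgeR and DESeq2 fits of levels were also run on simulated counts, drawn independently for each miRNA. That run did not cover the arm ratios, and no outcome of it is used here. Members, lists and tests were chosen with earlier results of these data known. The text names all 4 members, the 3 miRNAs most like and the 1 least like each, and the 3 tested of each muscle list with the highest mean over the 12 libraries; a few others were named after their values were seen. Sequences are RefSeq's (GRCr8), where 4 of 4 members and 581 of 641 listed miRNAs matched by name; hairpins were folded with RNAfold 2.7.2. Figures used Python 3.11.15, pandas 2.3.3 and matplotlib 3.10.9.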

Additional observations from a re-analysis of the deposited data

Results flagged for a closer look

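Of 20 sets of 6 libraries examined (members and measures in each group), 1 was flagged for a library far from the rest, and chance flags about 1 in 20. MiR-143-5p in EWH 1 read 349.6 rpm, where the next EWH library lay at 244 rpm, a gap of 0.635 of the EWH range and above Dixon's 95% critical value. Controls 2 and 4 read higher still, at 432 and 421 rpm.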

How the results depend on the processing

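No member was called in any of 25 alternative settings (limma, edgeR or DESeq2 Benjamini-Hochberg adjusted p from 0.220 to 1), nor by edgeR with a library left out (0.238 to 0.989). Neither arm ratio (limma adjusted p 0.232 to 0.909 over 18 settings) nor any single value (exact permutation adjusted p 0.0909 to 0.916 over 15 settings) passed in an alternative either. Apart from edgeR with a library left out, 171 of these values kept their direction and 5 did not. Limma with another filter, without trend, robust or with the replicate block returns the same estimate by construction. Such settings could not change a direction, so the tally does not measure stability. The log2 fold change of miR-143-3p was 0.0225 with edgeR, 0.0162 with DESeq2 and 0.0143 without EWH 3 and 4, that of miR-145-5p was 0.0212 after quantile normalization, and that of miR-145-3p was −0.0297 with scaling without miR-143-3p. By edgeR with a library left out, the log2 fold change of miR-143-3p took both signs, from −0.088 without EWH 2 to 0.069 without EWH 4. That of miR-145-3p was −0.0157 by edgeR without EWH 2. Quantile normalization gives miR-143-3p 1 value in all libraries by construction, so it gave no fold change. The correlation of miR-143-3p with miR-145-5p was 0.0720 with scaling without miR-143-3p, and that of miR-143-5p with miR-145-5p ran from −0.0535 (without control 2) to 0.353 with a library left out; these alternatives and edgeR with a library left out were chosen after seeing the data. Over all tested miRNAs limma called 0, but 8 after quantile normalization, 24 without EWH 2, and 1 without EWH 4 or without EWH 3 and 4; edgeR called 40 (34 higher, 6 lower; 0 to 45 with a library left out) and DESeq2 63 (46 higher, 17 lower). Of the arm ratios limma called 0, but 3 at a pseudocount of 5 and 1 without EWH 4 or without control 5. The limma count at an unadjusted p under 0.05 was 70, against 116 with no filter, 37 at a filter of 10 rpm, 43 without EWH 3 and 38 without EWH 3 and 4. Same-numbered libraries shared only a number (correlation of deviations over 0.1 in 3 of 6 pairs, range −0.50 to 0.31). With 1 library of each group per number, the replicate block cannot change a fold change, only its error. For miR-145-5p (−0.17) it gave limma adjusted p = 0.633, and 57 miRNAs had an unadjusted p under 0.05. Counting error was below the spread between libraries for every member; noise from library preparation was not measured.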
